A study of Rattus norvegicus with 22 samples.

Results

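Immediate-early genes are transcribed within minutes of a stimulus, from factors already present in the cell, and most of their transcripts are short-lived. Some of them (Arc, Egr1, Egr2, Nr4a1 and Nr4a3, called neuronal activity-type here) are best known in brain from synaptic activity, which reaches their promoters through calcium, the MAP kinases, CREB and serum response factor. Others (Ier2, Ier3, Klf4 and Klf6, called stress-type here) are best known from growth factors, cytokines, DNA damage and injury. The division is one of usage, since Egr1, Egr2 and Nr4a1 also respond to growth factors and stress. The Fos and Jun families, which form AP-1, are not described. These 9 genes were found by their symbol in the array annotation, where 12 probe sets carry 1 of the 9 names alone, among 31042 probe sets in all and 13718 genes with a symbol. Each gene is described by its brightest probe set, which is 1387068_at for Arc, 1368321_at for Egr1, 1387306_a_at for Egr2, 1386935_at for Nr4a1, 1369067_at for Nr4a3, 1372389_at for Ier2, 1388587_at for Ier3, 1387260_at for Klf4 and 1387060_at for Klf6.

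Expression was measured on 22 Affymetrix Rat Genome 230 2.0 arrays from 11 male Fischer rats, aged 8 weeks on arrival and implanted 1 week later. All rats, the untreated ones included, carried an orthotopic tumor grown from 9L cells, a rat gliosarcoma line often used as a glioblastoma model, in the right caudate nucleus. At 10 days, 6 rats (rats 6 to 11) received synchrotron microbeam radiation therapy (MRT). A lateral beam divided into parallel planes crossed both hemispheres, with 400 Gy in the microbeams and 18 Gy in the valleys between them. The methods give these doses at the tumor and no separate dose for contralateral brain, although similar irradiation of both tissues was intended. The other 5 (rats 1 to 5) were not irradiated, and tumor and contralateral brain were punched from frozen sections of each brain 6 h after MRT. The contralateral groups are therefore unirradiated or irradiated brain of a tumor-bearing animal, not of a healthy one. Irradiation was performed under isoflurane, and whether the untreated rats were anesthetized that day is not given in the sources used here. The part of anesthesia and handling in any difference was not tested.

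Values are signals summarized by the authors with RMA, on a linear scale from 10 to 36564 with a median of 205. Differences are on the log2 scale ± SE from limma, with 5 untreated and 6 MRT rats in each tissue, and a probe set was called at a false discovery rate of 5% over all 31042. Overlap of groups is described for the members only. The share of all probe sets without overlap is not given, so a lack of overlap is not a result particular to the members. Neuronal markers (Snap25, Syt1, Nefl and 5 others) were present in both tissues, with a mean log2 signal of 12.47 to 12.82 in contralateral brain and 11.02 to 12.09 in tumor, and the 4 cycling-cell markers (Mki67, Top2a, Cdk1, Ccnb1) were all higher in untreated tumor, with a median difference of 5.73. Neuronal transcripts were thus present in the tumor punches. The contralateral array of MRT rat 7 stood apart: its leukocyte markers had a mean log2 signal of 6.02, against 8.23 to 8.76 on the other MRT arrays and 5.91 to 6.12 on the untreated ones, and its striatal markers had the highest level of all contralateral arrays (11.91). The tumor array of untreated rat 5 had the highest microglial (10.37), leukocyte (7.94), neuronal (12.09) and astrocyte (12.23) levels of the untreated tumors. It also had the lowest cycling-cell level (10.85). The rats also fell into 2 groups by the labelling spike-ins, whose gap between 5′ and 3′ probe sets was flat in rats 1, 5, 9, 10 and 11 (log2 -0.80 to -0.55 on contralateral arrays) and steep in rats 2, 3, 4, 6, 7 and 8 (-1.55 to -1.25). On the tumor arrays the same rats overlapped in this gap (-1.46 to -0.73 and -2.80 to -1.31), so the split is less sharp for the tumor values. Differences within the flat group (2 untreated against 3 MRT rats) and the steep group (3 against 3) are given for each gene in both tissues, with no test.

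The promoter sequences bear on how the members are usually distinguished. RefSeq promoters (GRCr8) were matched for 6 of the 9 genes, and the 250 bases before the start given there were searched on both strands for the CArG box bound by serum response factor, for the cyclic AMP response element TGACGTCA, for its half-site TGACG, for the EGR site GCGTGGGCG and for the NF-kB site. The stretches that hold the CArG boxes or response elements of 5 genes are printed 5′ to 3′ with the matches in capitals.
Egr1: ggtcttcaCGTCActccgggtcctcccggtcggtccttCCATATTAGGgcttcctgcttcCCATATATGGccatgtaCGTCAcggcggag
Egr2: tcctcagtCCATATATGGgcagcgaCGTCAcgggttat
Nr4a1: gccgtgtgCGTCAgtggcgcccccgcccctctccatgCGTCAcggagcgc
Ier2: cgtttcagTGACGTCActcttact
Klf6: taggaaggCCTTTAATGGagaggctc
They lie at chr18:26736935-26737024 (plus strand), chr20:21054495-21054532 (minus), chr7:134260048-134260097 (plus), chr19:40399299-40399322 (plus) and chr17:69458662-69458687 (minus), in that order. For Egr2 and Nr4a1 the start used is inside the span that RefSeq gives the whole gene.

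Egr1 had 2 CArG boxes and Egr2 and Klf6 had 1 each, and a CArG box was found in 1.5% of all 33469 promoters of the table. In Egr1 and Egr2 the box nearest the start has the same 10 bases, beginning 83 bases before it, and is followed by a half-site beginning at 66 bases in both. Ier2 had the full element TGACGTCA, also beginning 66 bases before the start, which 1.59% of promoters hold and which contains the half-site on either strand. Nr4a1 had 4 half-sites, of which the 2 nearest the start are shown, and 18.2% of promoters hold at least 1. Nr4a1 also had 1 NF-kB match (3.54% of promoters) and none of the 6 had the EGR site (0.478%). Klf4 matched none of the 5 motifs. These are matches of letters: the full element was found in Ier2 alone of the 6, a stress-type gene, and Egr1, Egr2 and Nr4a1 held the half-site only. No promoter was matched for Arc, Nr4a3 or Ier3, which were not searched, so the types cannot be compared by these motifs.

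Before any treatment, the members separated by type between tumor and contralateral brain. The members and types were chosen with earlier results of these data known. All 4 stress-type genes were called higher in untreated tumor than in untreated contralateral brain, and 4 of the 5 neuronal activity-type genes lower. This comparison called 22.6% of all probe sets higher and 32.2% lower, and the median difference of all probe sets was -0.12. The median over the stress-type genes was 1.85 and over the neuronal activity-type genes -1.21.

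Klf4, a transcription factor of epithelial and stem cells that also follows stress, had signals of 461, 244, 416, 338 and 285 in contralateral brain of untreated rats 1 to 5 and of 2409, 1910, 2009, 1275 and 1112 in their tumors. Every tumor exceeded every contralateral sample, by 4.93-fold on average (log2 2.30 ± 0.23, adjusted p = 4.1e-08). Klf6, a zinc finger factor induced by injury, had 1640, 1281, 1039, 1546 and 1636 against 3751, 3589, 3146, 3207 and 3097, a difference of 1.25 ± 0.20 (adjusted p = 2.5e-05). Ier2, a nuclear protein induced by growth factors, was 3.83-fold higher in tumor (1.94 ± 0.24, adjusted p = 9.1e-07). Ier3, which modulates apoptosis and NF-kB and ERK signaling, was 3.41-fold higher (1.77 ± 0.28, adjusted p = 1.7e-05).

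Nr4a3, an orphan nuclear receptor, had the largest difference in the other direction. Its signals were 1070, 942, 781, 1067 and 1088 in untreated contralateral brain and 264, 315, 190, 381 and 466 in the tumors of the same rats, 3.18-fold lower (-1.67 ± 0.20, adjusted p = 8.1e-07). The second Nr4a3 probe set, 1393389_at, gave -1.34 ± 0.17 (adjusted p = 1.7e-06). Nr4a1, the related receptor Nur77, was 2.31-fold lower (-1.21 ± 0.24, adjusted p = 0.00026), and its groups did not overlap either. Arc, whose product traffics AMPA receptors at synapses, had 1670, 536, 828, 897 and 1187 in contralateral brain and 623, 194, 247, 308 and 681 in tumor. It was 2.63-fold lower (-1.40 ± 0.39, adjusted p = 0.005), and was lower in the tumor of each of the 5 rats, although the highest tumors overlapped the lowest contralateral sample. Egr1, a zinc finger factor, was 1.54-fold lower without overlap (-0.63 ± 0.15, adjusted p = 0.0015). Egr2, its relative that is also the master factor of Schwann cell myelination, did not pass (-0.24 ± 0.36, adjusted p = 0.59), with 2 of 5 tumors above their own contralateral side. The 8 neuronal markers were lower in untreated tumor too, all 8 of 8, with a median of -1.10 and a range from -2.19 to -0.48. In bulk tissue, fewer cells of a type and less RNA per cell cannot be told apart, and the part of the neuronal share in these differences was not tested.

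**Figure D1:**
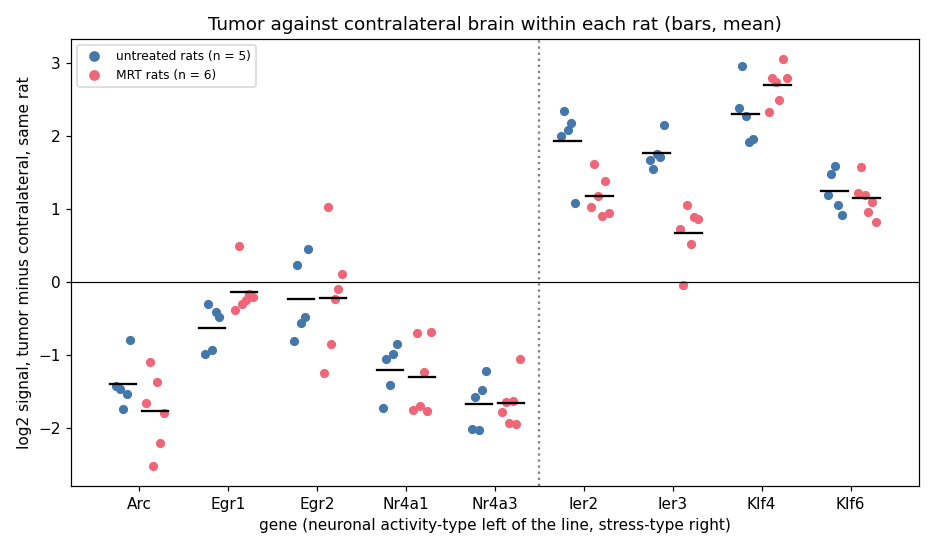
Difference of log2 signal between tumor and contralateral brain of the same rat (y axis) for the 9 genes (x axis), with 1 point per rat and bars at the mean of 5 untreated and 6 MRT rats. All points of Arc, Nr4a1 and Nr4a3 lie below 0 and all points of Ier2, Klf4 and Klf6 above it, while Ier3 lies at 1.56 to 2.16 in untreated rats and at -0.04 to 1.06 in MRT rats.

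**Figure D2:**
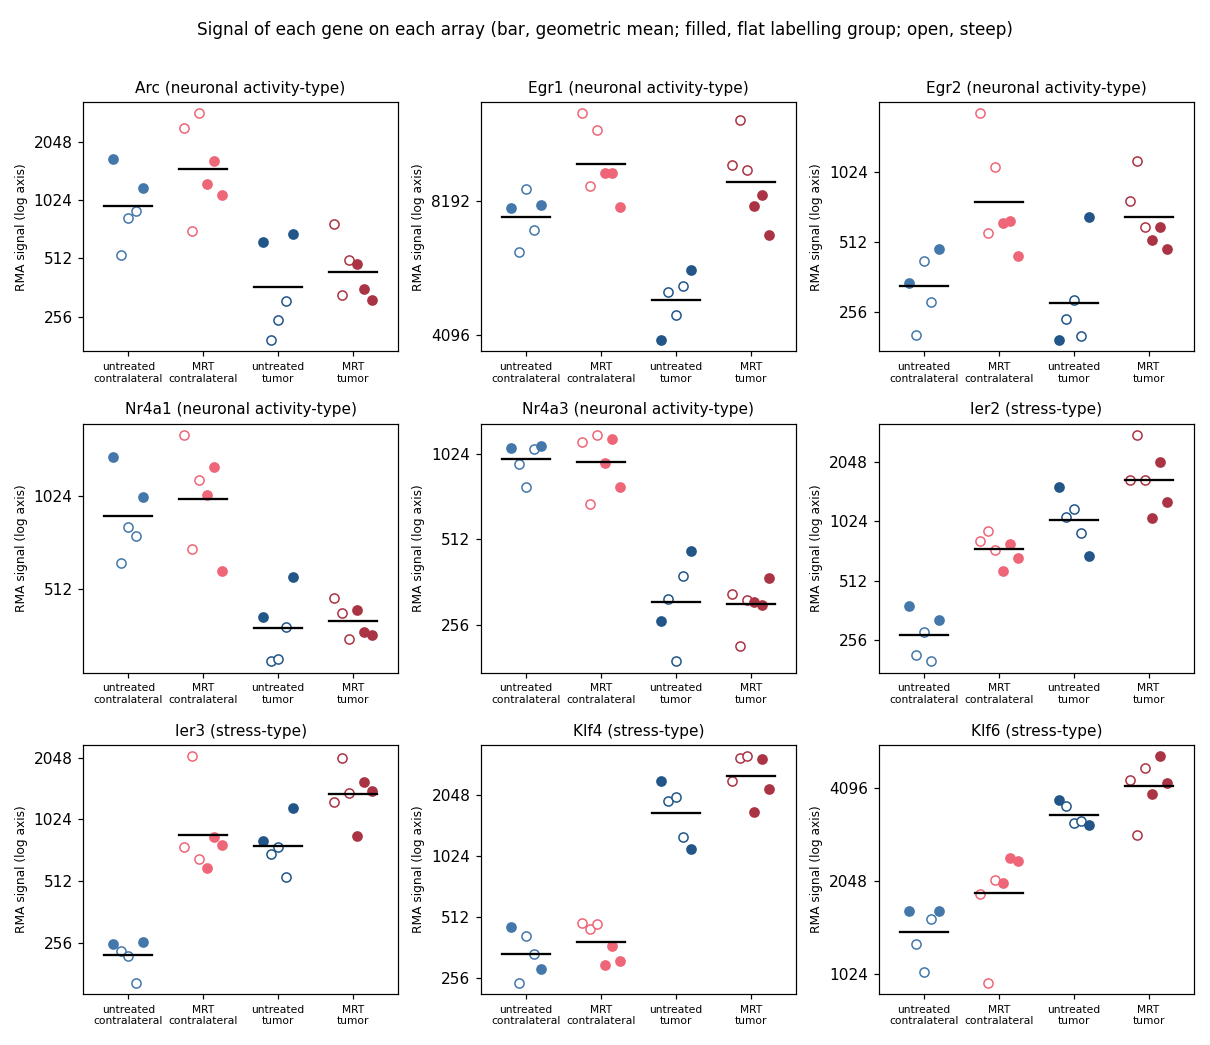
RMA signal of the brightest probe set of each gene (y axis, log scale, a separate range in each panel) on the 22 arrays by group (x axis), with bars at the geometric mean, filled points for the flat labelling group and open points for the steep one. Ier2 and Ier3 do not overlap between untreated and MRT contralateral brain, and Egr1 does not overlap between untreated and MRT tumor. The share of all probe sets without overlap is not given.

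In contralateral brain, MRT was followed by higher Ier2 and Ier3, the only 2 members called, and both are stress-type. In this comparison 2.86% of all probe sets were called higher and 1.24% lower. An unadjusted p below 0.05 was found for 5 of the 12 member probe sets, both Egr2 ones included, and for 13% of all probe sets. The median over the 9 genes was 0.41, against -0.02 over all probe sets. It was 0.93 for the stress-type genes and 0.39 for the neuronal activity-type genes, but within each type the genes ran from little difference to a large one.

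Ier3 had signals of 252, 235, 222, 164 and 260 in the untreated rats and of 753, 2079, 657, 592, 845 and 770 in MRT rats 6 to 11. The lowest MRT sample was above the highest untreated one. The difference was 3.83-fold (log2 1.94 ± 0.27, adjusted p = 0.00063). The highest value, 2079, was that of rat 7, the array that stood apart. Without rat 7 the difference was 1.68 ± 0.14 (adjusted p = 3.2e-06). The values were 1.51 in the flat labelling group and 2.30 in the steep one, which includes rat 7.

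Ier2 had 381, 214, 279, 199 and 323 in the untreated rats and 814, 915, 733, 572, 786 and 666 after MRT. Again the groups were apart, and the MRT samples were close to each other, with rat 7 the highest here too. The difference was 2.73-fold (1.45 ± 0.17, adjusted p = 0.00016), with 0.93 in the flat and 1.84 in the steep labelling group. Leukocyte markers moved in the same direction in this tissue, 4 of 5 of them higher with a median of 1.95, and the 4 microglial markers were all lower. In rat 7 the mean log2 leukocyte level was 6.02, within the untreated range (5.91 to 6.12), against 8.23 to 8.76 on the other MRT arrays. Gfap of the astrocyte list was higher (0.73), and Cldn5 of the endothelial list (-1.16) and Top2a of the cycling-cell list (-0.58) were lower. The part of these cell types in the Ier2 and Ier3 differences was not tested.

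The Klf genes did not pass in contralateral brain. Klf6 had 1640, 1281, 1039, 1546 and 1636 in the untreated rats and 1863, 962, 2065, 2015, 2424 and 2381 after MRT, so that 5 of the 6 MRT samples were above all untreated ones and rat 7 was below them all. The difference was 0.41 ± 0.22 (adjusted p = 0.49; 0.47 flat, 0.28 steep) and became 0.60 ± 0.13 (adjusted p = 0.015) without rat 7. Klf4 ranged from 244 to 461 and from 299 to 478, with a difference of 0.20 ± 0.18 (95% interval -0.20 to 0.59, adjusted p = 0.81) whose sign depended on the labelling group (-0.16 flat, 0.52 steep).

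Among the neuronal activity-type genes in contralateral brain, Egr2 came nearest to the threshold. It had 342, 205, 426, 283 and 480 in the untreated rats and 1826, 562, 1075, 620, 634 and 447 after MRT. Only rat 11 lay within the untreated range, and rat 6 was more than all others. The difference of 2.29-fold (1.19 ± 0.33, adjusted p = 0.067) missed the threshold, and was 0.47 in the flat and 1.83 in the steep group. It passed with the labelling group as a block (1.22, adjusted p = 0.048), without rat 7 (1.28, adjusted p = 0.043) and without rat 11 (1.35, adjusted p = 0.045), and also with array weights (adjusted p = 0.044) and with 1 probe set per gene (adjusted p = 0.047). Under 15 of 21 alternatives it was not called, among them without rat 6 (0.94, adjusted p = 0.078) and without rat 2 (1.02, adjusted p = 0.18).

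Egr1 had 7918, 6298, 8738, 7040 and 8045 in the untreated rats and 12899, 8856, 11835, 9461, 9475 and 7932 after MRT. The order of the 6 MRT rats was the same as for Egr2, from rat 6 and rat 8 down to rat 11. The difference was 0.39 ± 0.13 (95% interval 0.11 to 0.68, adjusted p = 0.16), with 0.16 in the flat and 0.60 in the steep group.

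Arc had the largest SD of log2 signal of the 9 genes in both contralateral groups (0.61 and 0.75, with Egr2 at 0.75 in the MRT group too). Its signals were 1670, 536, 828, 897 and 1187 without treatment and 2431, 712, 2877, 1235, 1637 and 1087 after MRT. Rat 7 was below 4 of the 5 untreated rats, and untreated rat 1 was above 4 of the 6 MRT rats. The difference of 0.64 ± 0.35 had an interval from -0.12 to 1.41 (adjusted p = 0.52), and its sign depended on the labelling group, with -0.11 in the flat group and 1.21 in the steep one.

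The nuclear receptors did not pass, with adjusted p of 0.90 for Nr4a1 and 0.98 for Nr4a3. Nr4a1 ranged from 619 to 1370 (median 813) without treatment and from 586 to 1616 (median 1091) after MRT, a difference of 0.18 ± 0.26 with an interval from -0.39 to 0.74 (-0.37 flat, 0.58 steep). Nr4a3 had 781 to 1088 against 679 to 1195, a difference of -0.03 ± 0.16 with an interval from -0.37 to 0.31 (-0.18 flat, 0.08 steep). Its second probe set gave -0.06 ± 0.15. The neuronal markers had a median of -0.07 in this comparison and none of 8 was called. The 5 striatal projection neuron markers had a median of 0.51, none was called, and their mean log2 signal ran from 8.72 to 11.02 in untreated and from 9.21 to 11.91 in MRT contralateral brain. The part of these marker levels in the values of the neuronal genes was not tested.

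**Figure D3:**
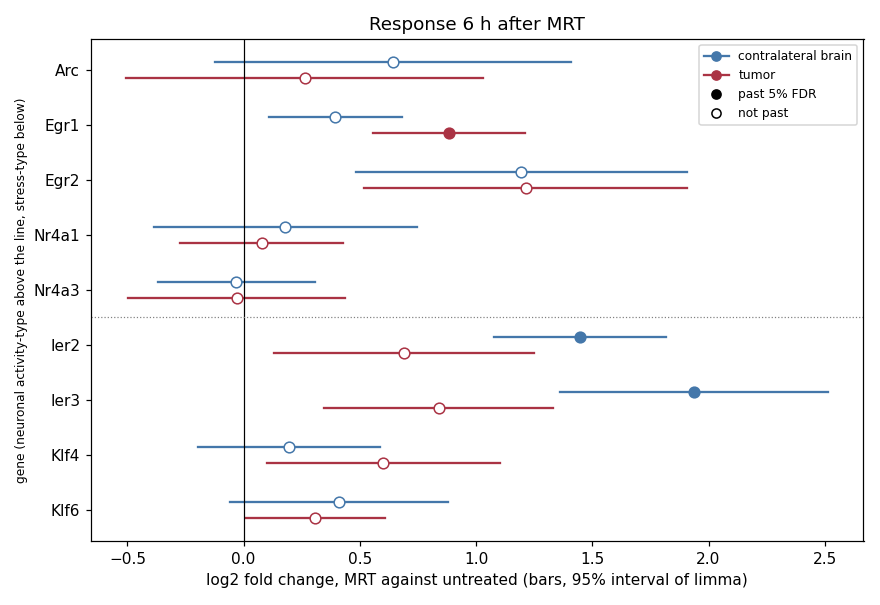
Log2 fold change of MRT against untreated (x axis) with its 95% interval for each gene (y axis), in contralateral brain (blue) and tumor (red), filled where the 5% false discovery rate was passed. The filled points are Ier2 (1.45) and Ier3 (1.94) in contralateral brain and Egr1 (0.88) in tumor, and both Nr4a genes lie close to 0 in both tissues.

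In tumor, the member called was Egr1, a neuronal activity-type gene by the division used here. In this comparison 0.593% of all probe sets were called higher and 0.325% lower. An unadjusted p below 0.05 was found for 7 of the 12 member probe sets, both Egr2 ones included, and for 8.39% of all probe sets. The median over the 9 genes was 0.60, over all probe sets 0.00, over the stress-type genes 0.65 and over the neuronal activity-type genes 0.26.

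Egr1 had signals of 3993, 5106, 4554, 5287 and 5742 in untreated tumors and 9859, 12448, 9604, 7968, 8470 and 6879 in MRT tumors. The lowest MRT tumor was above the highest untreated one. The difference was 1.85-fold (0.88 ± 0.15, adjusted p = 0.017), with 0.69 in the flat and 1.09 in the steep labelling group. The call was lost without rat 2, rat 3 or rat 6, with adjusted p of 0.054, 0.057 and 0.052 and differences of 0.90, 0.86 and 0.86. After MRT, Egr1 was lower in tumor than in contralateral brain of the same rat in 5 of 6 rats, by a log2 difference of -0.39 to -0.16, and higher in rat 7 (0.49). In the 5 untreated rats the difference was -0.99 to -0.30.

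Egr2 had 195, 241, 288, 202 and 654 in untreated tumors and 771, 1142, 593, 525, 594 and 480 after MRT. All MRT tumors were above 4 of the untreated ones, and untreated rat 5 was above 4 of the MRT tumors. The difference was 2.32-fold (1.21 ± 0.32, adjusted p = 0.15), close to the 1.19 of contralateral brain. Without rat 5 it was 1.52 ± 0.23 (adjusted p = 0.0075). Rat 5 is the untreated tumor array with the highest microglial, leukocyte, neuronal and astrocyte markers and the lowest cycling-cell markers. SAM, the permutation test of the study's methods, called Egr2 in both tissues and Ier3 in tumor. The values were 0.57 in the flat group, which includes rat 5, and 1.74 in the steep group.

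The stress-type genes in tumor started from higher signals. Ier3 had 802, 691, 750, 538 and 1158 without treatment and 1251, 2027, 1370, 847, 1563 and 1404 after MRT. Rat 9 was inside the untreated range, and rat 5 was the highest untreated tumor. The difference was 0.84 ± 0.23 (adjusted p = 0.16), and 0.99 ± 0.21 (adjusted p = 0.048) without rat 5, with 0.35 in the flat and 1.21 in the steep group. Ier2 ranged from 683 to 1524 (median 1085) and from 1070 to 2824 (median 1664), a difference of 0.69 ± 0.26 (adjusted p = 0.42), with 0.47 in the flat and 0.92 in the steep group. Klf4 ranged from 1112 to 2409 and from 1685 to 3175 (0.60 ± 0.23, adjusted p = 0.44), with 0.45 flat and 0.76 steep. Klf6 ranged from 3097 to 3751 and from 2884 to 5180 (0.31 ± 0.14, adjusted p = 0.57), with 0.37 flat and 0.24 steep. Rat 7 had the highest MRT tumor signals of Ier2, Ier3, Egr1 and Egr2 and the lowest of Klf6.

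Arc, Nr4a1 and Nr4a3 did not pass in tumor. Arc had 623, 194, 247, 308 and 681 without treatment and 768, 333, 501, 477, 355 and 312 after MRT, a difference of 0.26 ± 0.35 whose interval ran from -0.51 to 1.03. In the flat group it was -0.80 and in the steep group 1.04. Nr4a1 gave 0.08 ± 0.16 (interval -0.27 to 0.43), with opposite signs in the flat (-0.31) and the steep group (0.35). Nr4a3 gave -0.03 ± 0.21 (interval -0.50 to 0.44; -0.11 flat, -0.01 steep), with -0.07 ± 0.17 for its second probe set. Among markers in tumor after MRT, 2 of 5 leukocyte genes were higher (S100a8, S100a9), 1 of 4 microglial genes (P2ry12), 1 of 4 endothelial genes (Cldn5, -0.84) and 1 of 4 cycling-cell genes (Ccnb1, -1.39) were lower, and none of the 8 neuronal genes was called. Their part in the members' values was not tested.

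The difference of the response between the tissues was tested directly. No member was called, with 0.0644% of all probe sets called higher and 0.403% lower. An unadjusted p below 0.05 was found for 3 of the 12 member probe sets and for 3.85% of all probe sets. Ier3 responded less in tumor than in contralateral brain by 1.10 on the log2 scale (-1.10 ± 0.37, adjusted p = 0.56), and Ier2 by 0.76 (-0.76 ± 0.32, adjusted p = 1). Egr1 had the opposite sign (0.49 ± 0.20, adjusted p = 1). With the rat as a fixed replicate block, which compares the 2 tissues of the same brain, Ier3 passed (-1.10 ± 0.19, adjusted p = 0.013), and with a random block it did not (adjusted p = 0.18). In each of the 5 untreated rats Ier3 was higher in tumor than in contralateral brain by 1.56 to 2.16, and in the 6 MRT rats by -0.04 to 1.06, so that the ranges do not overlap. The value of -0.04 was that of rat 7.

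The 4 groups can thus be ordered by their means for each gene, which is a description and not a test. For Ier2 the order of mean log2 signal was MRT tumor (10.71), untreated tumor (10.02), MRT contralateral (9.53) and untreated contralateral brain (8.08), each gap being more than the larger SD of its neighbours. The Ier2 signals of untreated and MRT tumor overlapped, however, and their difference was not called (adjusted p = 0.42). For Ier3, MRT contralateral brain (9.74) and untreated tumor (9.58) did not differ beyond their spread. For Klf4 and Klf6 both tumor groups were above both contralateral groups. For Arc, Nr4a1 and Nr4a3 both contralateral groups were above both tumor groups, and within a tissue the neighbours did not differ beyond their SD. By their means, Egr1 and Egr2 were ordered by treatment instead. For Egr1 the gap between MRT tumor and untreated contralateral brain (0.26) was within the larger SD (0.29). For Egr2, both MRT groups (9.57 and 9.35) were above both untreated ones (8.38 and 8.14) by more than the SD. In both tissues the Egr2 signals overlapped and the MRT difference was not called (adjusted p = 0.067 and 0.15). For Egr1 the order was MRT contralateral (13.28), MRT tumor (13.14), untreated contralateral (12.88) and untreated tumor (12.26), and only the last gap was more than the larger SD of its neighbours.

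The neuronal activity-type genes varied together from rat to rat in contralateral brain. After the group means were subtracted, the 10 pairs of these 5 genes had Pearson correlations over the 11 arrays from 0.48 to 0.96 with a median of 0.76, highest for Egr1 with Egr2 (0.96) and Arc with Nr4a1 (0.85). The 6 pairs of stress-type genes ran from -0.72 (Ier3 with Klf6) to 0.63 with a median of 0.01, and the 20 pairs between the types had a median of 0.37. MRT rat 7 deviated by 1.28 for Ier3 and by -0.96 for Klf6, and the correlations were not computed without this rat. In tumor the medians were 0.34, 0.28 and -0.13, with Ier2 and Klf4 at 0.89 and Arc and Nr4a1 at 0.82. These are descriptions over arrays that share their labelling groups and, within a brain, the animal. In contralateral brain Arc deviated from its group mean by 0.81 in untreated rat 1 and -0.83 in rat 2, and by 0.71, 0.95 and -1.07 in MRT rats 6, 8 and 7. Nr4a1 deviated in the same direction in each of these 5 rats.

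**Figure D4:**
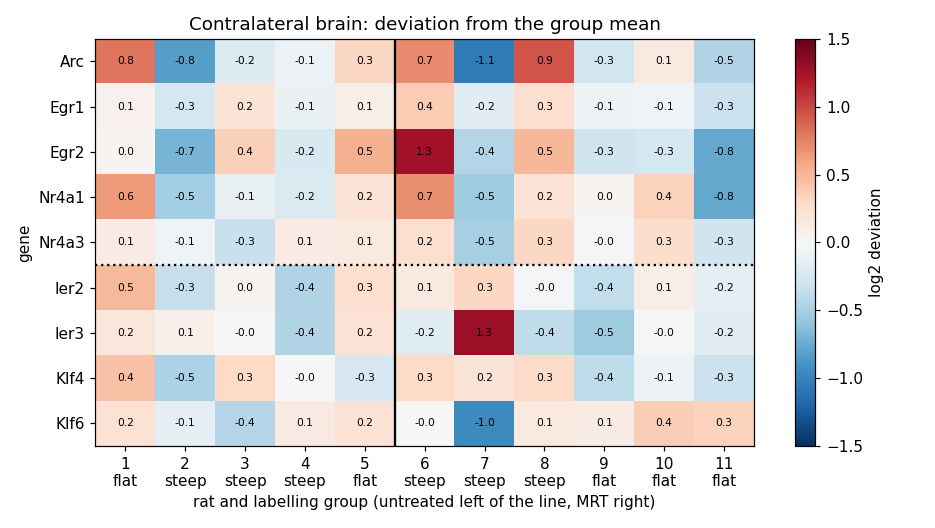
Deviation of log2 signal from the mean of its group (colour and number in each cell) for 9 genes (rows) in contralateral brain of 11 rats (columns, with the labelling group). In the 5 upper rows rats 2, 7 and 11 are low and rats 6 and 8 high. Rats 3, 4, 9 and 10 go both ways (rat 3 has 0.36 for Egr2 and -0.33 for Nr4a3). Rat 7 is high for Ier3 and low for Klf6.

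The genes whose deviations were most like those of Arc in contralateral brain were Fgf9 (r = 0.95), Ttc39b (0.91) and Dusp6 (0.91), the last a phosphatase of ERK and itself a target of that pathway. In tumor they were Mfsd9 (0.92), Uncx (0.91) and RGD1562037 (0.87). Those most like Ier3 were Rnf167 (0.97), Tek (0.94) and Ndufb6 (0.94) in contralateral brain and Tbx18, Plekho1 and Nfkbid (0.95, 0.94 and 0.94) in tumor. Each was picked as the highest of all probe sets with another single symbol over 11 arrays, and for Ier3 in contralateral brain rat 7 lies far from the other arrays.

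Other genes of the same classes were read from lists, which were chosen with earlier results of these data known. Of all probe sets, 2.86% were called higher and 1.24% lower after MRT in contralateral brain, and 0.593% and 0.325% in tumor. Of 14 measured other neuronal activity genes, 1 was higher and none lower after MRT in contralateral brain (median 0.14), and none was called in tumor (median 0.05). The one called was Nptx2, a synaptic pentraxin that gathers AMPA receptors (0.60 ± 0.12, adjusted p = 0.012). The largest value in tumor was that of Vgf, a secreted neuropeptide precursor (0.51 ± 0.23, adjusted p = 0.58). In untreated tumor 9 of the 14 were lower than in contralateral brain and 2 were higher, with a median of -0.79. Of all probe sets, 32.2% were lower and 22.6% higher there.

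Of the 18 other stress and growth factor genes, 13 were higher and 2 lower in contralateral brain after MRT, with a median of 0.85. The shares of all probe sets were 2.86% and 1.24%. The largest differences were those of Gadd45g (2.12 ± 0.12, adjusted p = 2.4e-07), Gadd45b (2.02 ± 0.18, adjusted p = 1.2e-05) and Gadd45a (1.83 ± 0.20, adjusted p = 7.7e-05), which encode stress sensors of the DNA damage and p38 pathways, and of the matricellular gene Cyr61 (1.99 ± 0.25, adjusted p = 0.00031). The 2 lower genes were Ctgf (-1.13 ± 0.13, adjusted p = 9.4e-05), a relative of Cyr61, and Klf2 (-0.92 ± 0.19, adjusted p = 0.011), a factor of endothelial cells exposed to flow. In tumor 4 of 18 were higher and none was lower (median 0.72), against 0.593% and 0.325% of all probe sets. The 4 were Gadd45b (1.70 ± 0.17, adjusted p = 0.00076), Gadd45g (1.32 ± 0.18, adjusted p = 0.0053), Csrnp1 (0.99 ± 0.21, adjusted p = 0.049) and Klf10 (0.87 ± 0.17, adjusted p = 0.037). Klf2 was the only gene of the 3 lists of other genes whose response differed between the tissues (adjusted p = 0.0074), with 0.61 in tumor. Of the cell type markers, Ccnb1 differed too (-1.24 ± 0.25, adjusted p = 0.023). In untreated tumor 11 of the 18 were higher than in contralateral brain and none was lower (median 1.04), against 22.6% and 32.2% of all probe sets.

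Of 8 measured upstream and feedback genes, 1 was higher in contralateral brain, Crem, whose short form ICER represses cyclic AMP response elements (0.83 ± 0.18, adjusted p = 0.017), and none in tumor, where Crem also had the largest value (0.55 ± 0.12, adjusted p = 0.062). Srf, which encodes serum response factor, had 0.16 and 0.21, and Nab2, a corepressor of the Egr proteins, had 0.44 and 0.41, none of them called.

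**Figure D5:**
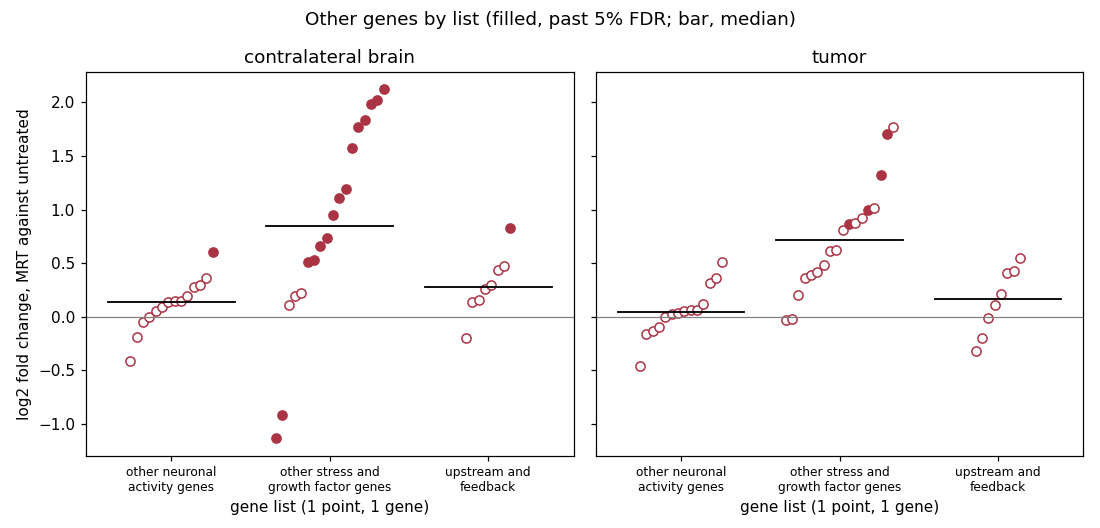
Log2 fold change of MRT against untreated (y axis) in contralateral brain and tumor for the genes of 3 lists (x axis, 1 point per gene in rising order), filled where the 5% false discovery rate was passed, with bars at the median. The medians of the other neuronal activity genes are 0.14 and 0.05 and those of the other stress and growth factor genes 0.85 and 0.72.

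The 2 probe sets not described above, 1398266_a_at for Egr2 and 1369217_at for Nr4a3, had signals of 23 to 53 and 21 to 51, below the 25th percentile of all values (58) on every array. Neither was called in the 4 comparisons as fitted above. The Egr2 one was called by SAM in contralateral brain and with array weights in tumor, and the Nr4a3 one was called lower in untreated tumor with array weights and with the rat as a fixed replicate block (-0.27 ± 0.10, adjusted p = 0.036).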

How the data were processed

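Total RNA of the tumor and contralateral brain of 11 rats was labelled from the 3′ end and hybridized to 22 arrays. The deposited values are intensity signals from RMA, which the submitters' processing notes name with Affymetrix Expression Console. The authors gave them as whole numbers on a linear scale without detection flags. Groups were taken from the sample titles. Values were read from the table that has a column for each sample and symbols from the annotated matrix, and the group means of the 2 tables were equal. Of 31099 probe sets 57 controls were left out, 19546 had 1 symbol, 372 several and 11124 none. No member name occurred only in a probe set with several symbols.

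The deposited signals were taken to log2 and fitted with limma 3.58.1 (R 4.3.3) per tissue (9 residual degrees of freedom), and over all 22 arrays for the difference of the response and for untreated tissues. Adjusted p values are those of Benjamini and Hochberg over all probe sets. No session term was fitted, since the 2 experimental sessions of the methods are not assigned to samples in the records used here. Replicates are separate rats, and the number of arrays limits the precision.

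The members, types and lists were chosen with earlier results of these data known, and the labelling groups come from an earlier analysis. The types are Arc, Egr1, Egr2, Nr4a1 and Nr4a3 against Ier2, Ier3, Klf4 and Klf6. In the 3 further lists each gene stood as its brightest probe set, and up to 4 genes per list and tissue past the test, or the largest where none passed, were named. Klf2 and Ctgf, the lower genes of their list, and Srf and Nab2 were named after their values were seen. For likeness, the 3 probe sets with the highest Pearson r to Arc and Ier3 were named. Npas4 and Elk1 were not matched, and Sik1, Penk and Cdk1 were found under older symbols (Snf1lk, Penk1, Cdc2).

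Rat numbers in the sample titles pair the tissues of an animal. Deviations of the 2 tissues of a rat from the group means correlated at 0.097 to 0.649 (median 0.312), and the rat was therefore also fitted as a fixed replicate block (the number of members called for the difference of the response became 1) and as a random one (correlation 0.199).

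The model was tested before use on simulated data with independent noise on each array. That simulation held no shared rat, labelling group or outlying array, and its outcome is not given here. Alternatives were leaving out each rat, signals below 58 set to 58, a level filter, cyclic loess, trend and robust variances, array weights, a false discovery rate of 1%, 1 probe set per gene, SAM (the methods' test, 100 permutations), 1 fit of all groups, the rat blocks, and the labelling group as a block and within each group. Figures were drawn with matplotlib 3.10.9 (Python 3.11.15), and the random block used statmod 1.5.0.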

Additional observations from a re-analysis of the deposited data

Results flagged for a closer look

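In groups of 5 or 6 arrays, a value was noted where its gap to the nearest other value was large against the whole range of the group. Of 48 groups of member probe sets 2 were noted, where about 2.4 would be by chance, and both are the contralateral array of MRT rat 7. Ier3 was highest there (2079 against a next value of 845, a gap of 0.717 of the range of log2 signals). Klf6 was lowest (962 against 1863, 0.715).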

How the results depend on the processing

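Counts here are of member probe sets. Those between untreated tissues stayed within 1.5 times under all alternatives run and held the same 4 higher and 4 lower genes. In contralateral brain the 2 higher after MRT (Ier2, Ier3) were also called under each alternative, and the count was 4 with array weights (Egr2 and Klf6 joined) and 4 with SAM (both Egr2 probe sets joined, 3 genes in all). Leaving out 1 rat gave 2 to 4, the 4 without rat 7, when Egr2 and Klf6 joined. In tumor the 1 (Egr1) became 0 at a false discovery rate of 1%, 4 with array weights (3 genes, Egr1, Ier3 and both Egr2 probe sets) and 3 with SAM, and 0 to 3 on leaving out 1 rat (0 without rats 2, 3 or 6, and 3 without rat 5, when Egr2 and Ier3 joined). The difference of the response had 1 (Ier3) with the rat as a fixed replicate block and 0 otherwise. SAM called 1207 probe sets higher and 563 lower in contralateral brain, and 398 and 241 in tumor. Directions near 0 were not stable: Nr4a3 (1369067_at) in tumor was 0.058 with array weights, and on leaving out 1 rat it ran from -0.20 to 0.12 there and from -0.11 to 0.069 in contralateral brain. On leaving out 1 rat its second probe set (1393389_at) ran from -0.17 to 0.050 in tumor and from -0.14 to 0.020 in contralateral brain, and Nr4a1 in tumor from -0.012 to 0.22. That block also added the dim Nr4a3 probe set (1369217_at) as lower in untreated tumor, 6 in place of 5, and changed no other call. The causes were not tested. Signals without detection flags limit what can be said of the 2 dim probe sets.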
